A study of Homo sapiens with 12 samples.

Results

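The cytokines, chemokines and their receptors described here are the genes that the deposited table assigns to the KEGG pathway of cytokine-cytokine receptor interaction and that reached an FPKM (fragments scaled to exon length and library size) of 0.5 or more in 3 or more of the 12 libraries. The table holds 36866 genes, of which 241 carry this pathway and 120 reach the limit. Left out by name were 14 of these (TNF, TNFSF10, TNFRSF10A, TNFRSF10B, TNFRSF1A, TNFRSF1B, FAS, IL1B, IL18, INHBB, INHBE, GDF1, GDF15 and CXCL10), so that 106 genes remain, 40 ligands and 66 receptors. The limit on the level chose the genes. Just inside it, by the third-highest FPKM of the 12 libraries, were IL1R1 (0.54), TNFRSF6B (0.55), IL20RB (0.55) and CTF1 (0.56), and just outside were IL17B (0.45), BMP4 (0.47), BMP7 (0.47) and TNFRSF19 (0.48).

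Cytokines and chemokines are secreted or membrane-bound proteins through which blood cells control the growth, movement, survival and inflammatory state of their neighbours. Class I and class II cytokine receptors signal through JAK kinases and STAT factors, TGF-beta family receptors through SMAD proteins, receptors of the TNF, IL-1 and IL-17 families through adaptors that lead to NF-kappaB, and chemokine receptors through G proteins. Monocytes and macrophages are known as large sources of CC and CXC chemokines and as cells that depend on CSF1R signals.

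THP-1 and U-937 are human myeloid leukemia cell lines of monocytic type, used in the study as models of the M5 subtype of acute myeloid leukemia. Each line was treated for 24 h with honokiol, a biphenolic compound of magnolia bark, or with its solvent DMSO at 0.1%, and poly(A) RNA of 3 libraries per line and treatment was sequenced. The labels list doses of 20 and 35 μM without tying either to a line, and the sequencing methods give no dose, so that the dose behind each honokiol library is not known here. The 4 groups are thus THP-1 DMSO, THP-1 honokiol, U-937 DMSO and U-937 honokiol, with replicates 1 to 3 in each. Each line is 1 established culture line, and no label says that the libraries of a group came from separate cultures. All p-values therefore measure the spread between these libraries, which may be technical.

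Library totals ranged from 57406966 to 75065752 counts. Among low counts the value 4 was the most frequent, at 17264 values, against 10103 for 1, 9533 for 2, 6764 for 3, 4016 for 5 and 9165 for 8, and how many counts a sequenced fragment gives is not stated in the sources used here. The mitochondrial genome gave 13.7% of all counts of THP-1 DMSO 1 and 12.6% of U-937 DMSO 1, more than in any other library (5.61% to 7.55%). Of 10 monocytic markers SPI1, CEBPA, CD33, LYZ and CD68 were above an FPKM of 4 in each library of both lines. The others were lower in U-937 than in any THP-1 library (MPO at 0.06 to 0.17, CD14 at 0.17 to 2.15, CSF1R at 1.19 to 2.80, ITGAM at 2.26 to 5.47 and FCGR1A at 2.78 to 5.90). The T cell markers CD3D, CD3E and CD247 reached at most 0.24 in any library. In bulk RNA fewer cells that express a gene and less of its RNA per cell cannot be told apart.

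With DMSO the most abundant members of THP-1 were the co-receptor CD4, with a mean FPKM of 109 ± 17.4 (SD, n = 3, as for all means here), the chemokine CCL5 (89.7 ± 26.7), the growth inhibitor TGFB1 (84.4 ± 7.3), the TNF family ligand CD70 (70.3 ± 15.7) and the IL-17 receptor chain IL17RA (67.5 ± 10.8). These levels lay within their spread of each other from one neighbour to the next. In U-937 the first ranks went to TGFB1 (147 ± 47.0), the CXCL12 receptor CXCR4 (121 ± 17.9), CCL5 (83.0 ± 46.3), the monocyte attractant CCL2 (76.5 ± 50.9) and IL32 (48.4 ± 7.06), and here too no neighbour differed beyond the spread. After honokiol CD4 (120 ± 10.3), CCL5 (78.5 ± 8.63) and CD70 (66.2 ± 10.2) led in THP-1, with TGFB1 (64.4 ± 3.33) and CXCR4 (51.4 ± 4.95) next. The honokiol libraries of U-937 were led by CXCR4 (156 ± 11.01), TGFB1 (90.7 ± 6.41) and CCL5 (70.3 ± 17.8), followed by IL32 (42.9 ± 6.32) and the death receptor TNFRSF21 (42.3 ± 13.8). Of the 106 members 56 were past the FPKM limit in all 12 libraries, and 68 were past it in at least 3 of 6 libraries of each line. A further 19 passed in THP-1 only, 17 in U-937 only, and CCL4 and TNFRSF6B in neither line alone.

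**Figure D1:**
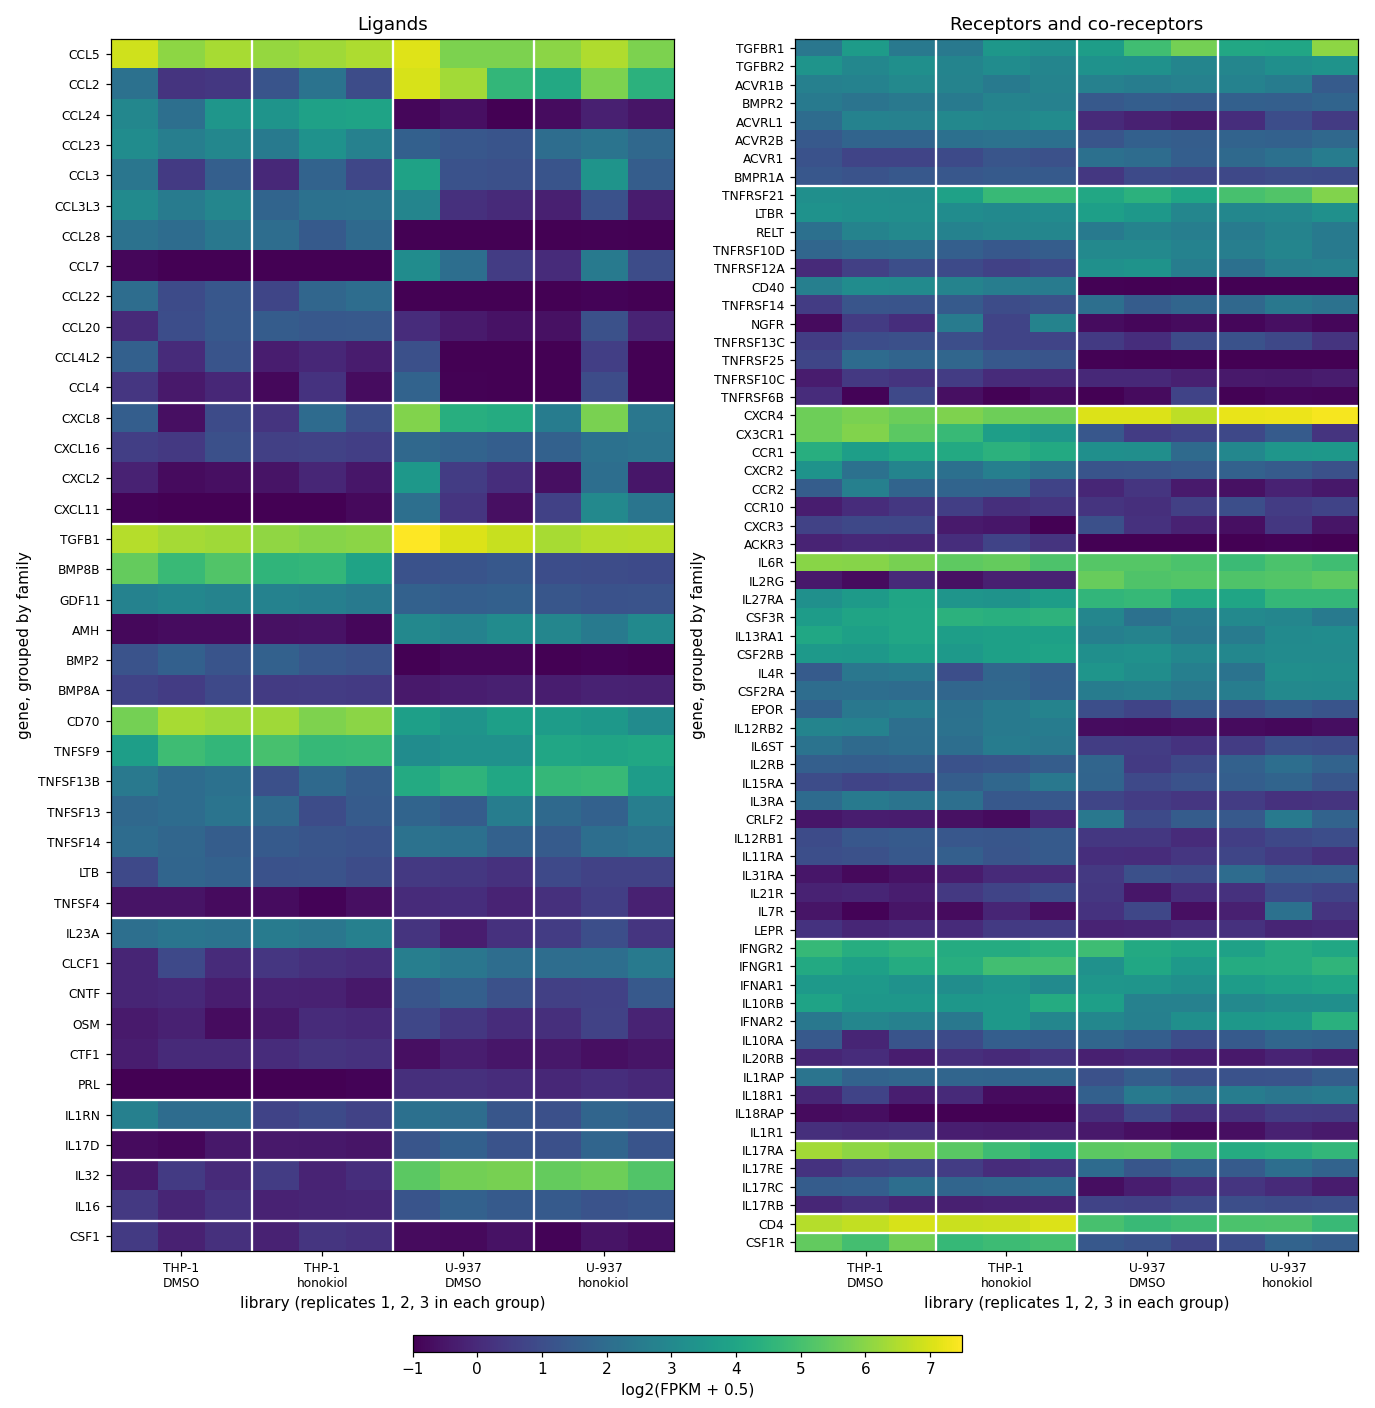
Level of the 106 members in the 12 libraries, as colour on the log2(FPKM + 0.5) scale, with ligands on the left, receptors on the right, rows grouped by family and columns by group (replicates 1 to 3). The columns of one line are close to each other and differ from those of the other line, as for IL32 and IL2RG (high in U-937) or CSF1R and CX3CR1 (high in THP-1), and U-937 DMSO 1 and honokiol 2 are brightest in the chemokine rows.

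Which cytokine and receptor genes change with honokiol was asked first in THP-1. No member passed the test: of the 87 members tested, 0 were differentially expressed genes (DEGs), called here by edgeR's quasi-likelihood test at an adjusted p-value under 0.05 with a log2 fold change beyond 1 in either direction, against 0.0411% of all 14600 genes tested. The smallest adjusted p-value among members was 0.0814. At the nominal threshold, an unadjusted p-value under 0.05 in edgeR's test, 9 members also met the fold limit, beside 2.79% of all genes. Of these 4 were higher and 5 lower with honokiol, beside 1.73% and 1.07% of all genes. At any fold 24 members passed the nominal threshold, 7 higher and 17 lower, beside 13.1% of all genes in either direction. The share of all genes by direction was not counted at any fold, so this split has none beside it. By DESeq2 8 members were DEGs, beside 1.71% of all genes. The 3 honokiol libraries lay wholly above or below the 3 DMSO libraries for 27 members, beside 20.6% of all genes, with 11 above (13.0% of all genes) and 16 below (7.62%). The median log2 fold change was -0.09 over the members and -0.001 over all genes tested.

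Among the ligands, the interleukin-1 receptor antagonist IL1RN (ENSG00000136689, chromosome 2, 113107214 to 113134016), a secreted protein that blocks IL-1 signalling, had the smallest p-value. Its FPKM was 6.07, 3.49 and 3.48 with DMSO and 1.14, 1.37 and 1.09 with honokiol, so that the groups did not overlap. The log2 fold change was -1.93 (SE 0.30) with an adjusted p of 0.0814 in edgeR. Next came a pair of macrophage inflammatory chemokines, which attract leukocytes. CCL4L2 had an FPKM of 2.54, 0.53 and 1.83 with DMSO and of 0.31, 0.46 and 0.29 with honokiol (log2 fold change -2.26, SE 0.59, adjusted p = 0.216, edgeR). CCL3L3 had 7.96, 5.35 and 6.90 with DMSO and 2.84, 3.96 and 4.13 with honokiol (log2 fold change -0.95, SE 0.26, adjusted p = 0.227, edgeR). Both are copies of other members, and reads could have been split between them, since 20.9% of the 31-base words of the CCL3 transcripts also occur in CCL3L3 (named CCL3L1 in GENCODE 29) and 19.6% of those of CCL4 in CCL4L2. CCL3 itself was at 4.57, 0.86 and 2.51 with DMSO and at 0.48, 2.75 and 1.26 with honokiol, which overlap.

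The TGF-beta family ligands TGFB1 and BMP8B, a bone morphogenetic protein, also lay lower with honokiol. TGFB1 had an FPKM of 92.54, 82.18 and 78.44 with DMSO and of 67.63, 60.97 and 64.49 with honokiol (log2 fold change -0.45, SE 0.14, adjusted p = 0.285, edgeR). BMP8B had 44.45, 26.56 and 36.02 with DMSO and 23.09, 23.97 and 14.76 with honokiol (log2 fold change -0.86, SE 0.27, adjusted p = 0.284, edgeR). In neither gene did the groups overlap, but TGFB1 overlaps HNRNPUL1 on the opposite strand and BMP8B overlaps OXCT2 on its own strand, and whether the counting used strand is not given in the sources used here. Of the 31-base words of the BMP8A transcripts 46.0% also occur in BMP8B, so that reads could have been split between these members. Among TNF family ligands, which cells mostly present on their surface, TNFSF13B (the B cell survival factor BAFF) was at 4.89, 3.47 and 4.03 with DMSO and at 1.60, 3.28 and 2.32 with honokiol. TNFSF14 (LIGHT) was at 3.48, 2.97 and 2.31 with DMSO and at 2.13, 1.85 and 1.71 with honokiol. Their log2 fold changes were -0.85 (SE 0.30) and -0.69 (SE 0.23).

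Among the receptors the chemokine receptors CX3CR1 and CXCR3 lay lower with honokiol in THP-1. CX3CR1 (ENSG00000168329, chromosome 3, 39263495 to 39281273), the receptor of fractalkine on monocytes, had an FPKM of 48.48, 58.74 and 40.09 with DMSO and of 25.95, 13.10 and 10.63 with honokiol (log2 fold change -1.62, SE 0.34, adjusted p = 0.162, edgeR). CXCR3, a receptor of interferon-induced chemokines, had a low level throughout, 1.09, 1.3 and 1.24 with DMSO and 0.27, 0.22 and 0 with honokiol (log2 fold change -2.90, SE 0.94, adjusted p = 0.290, edgeR). Of the 8 chemokine receptors tested these were the only members past the nominal threshold. The abundant CXCR4 did not separate, with 48.62, 55.09 and 47.72 with DMSO and 57.09, 48.86 and 48.20 with honokiol.

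IL17RA, the shared chain through which IL-17 family cytokines signal, and IL6R, the ligand-binding chain for IL-6, were the abundant interleukin receptors that lay lower. IL17RA (ENSG00000177663, chromosome 22, 17084954 to 17115694) had an FPKM of 79.16, 65.49 and 57.85 with DMSO and of 39.89, 27.95 and 19.91 with honokiol (log2 fold change -1.27, SE 0.27, adjusted p = 0.168, edgeR). IL6R had 63.48, 61.55 and 53.45 with DMSO and 41.76, 44.60 and 34.63 with honokiol (log2 fold change -0.62, SE 0.16). The signalling IL-1 receptor IL1R1 was near the limit, at 0.61, 0.54 and 0.61 with DMSO and 0.32, 0.28 and 0.34 with honokiol, a log2 fold change of -0.96 (SE 0.24). TNFRSF10D, a decoy receptor for TRAIL, was at 2.98, 3.58 and 3.81 with DMSO and at 2.51, 2.05 and 2.31 with honokiol, a log2 fold change of -0.64 (SE 0.18). None of these groups overlapped.

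The members that lay higher in THP-1 with honokiol and passed the nominal threshold were all receptors. Receptors also make up most of the members as a whole, 66 of 106. TNFRSF21 (death receptor 6; ENSG00000146072, chromosome 6, 47231532 to 47309905) had an FPKM of 8.84, 8.60 and 8.54 with DMSO and of 14.03, 26.08 and 26.18 with honokiol (log2 fold change 1.29, SE 0.24, adjusted p = 0.134, edgeR). IL21R and IL15RA bind cytokines whose receptors share the common gamma chain IL2RG. IL21R had 0.38, 0.43 and 0.31 with DMSO and 0.83, 1.17 and 1.52 with honokiol (log2 fold change 1.59, SE 0.30, adjusted p = 0.136, edgeR). IL15RA had 1.45, 1.17 and 1.29 with DMSO and 2.31, 3.05 and 4.84 with honokiol (log2 fold change 1.3, SE 0.29, adjusted p = 0.172, edgeR). The common gamma chain IL2RG was itself at only 0.09 to 0.51 in the 6 THP-1 libraries. NGFR, a neurotrophin receptor, had the widest scatter, with 0.10, 0.89 and 0.59 with DMSO and 5.24, 1.19 and 6.40 with honokiol (log2 fold change 3.0, SE 0.80, adjusted p = 0.227, edgeR).

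Smaller differences of the same direction were seen in IFNGR1 (the ligand-binding chain for interferon gamma), ACVR2B (an activin receptor) and CSF3R (the G-CSF receptor). IFNGR1 was at 17.41, 13.81 and 18.34 with DMSO and at 19.62, 29.72 and 30.07 with honokiol, a log2 fold change of 0.62 (SE 0.20). ACVR2B was at 2.11, 2.83 and 2.81 with DMSO and at 3.93, 4.10 and 3.88 with honokiol, a log2 fold change of 0.57 (SE 0.13). CSF3R was at 12.53, 15.14 and 15.81 with DMSO and at 21.54, 20.26 and 22.21 with honokiol, a log2 fold change of 0.51 (SE 0.12). Honokiol replicate 1 lay nearest to DMSO for TNFRSF21, CX3CR1, IL17RA, IFNGR1 and IL15RA, and without it TNFRSF21 (log2 fold change 1.53) and CX3CR1 (-2.11) were DEGs. In THP-1 the limit was reached by CCL4L2, CXCR3 and IL1R1 only with DMSO and by IL21R only with honokiol, so that the choice of genes fixes their direction in part.

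In U-937 cells again 0 of 85 members tested were DEGs in edgeR's test, beside 0.0947% of all 13726 genes tested, and the smallest adjusted p-value was 0.0897. At the nominal threshold 3 members also met the fold limit, beside 2.53% of all genes. All 3 were higher with honokiol (1.76% of all genes were) and 0 were lower (0.772%). At any fold 15 members passed the nominal threshold, 9 higher and 6 lower, beside 16.7% of all genes in either direction, with no share by direction counted. By DESeq2 3 members were DEGs, beside 1.62% of all genes. The libraries of the treatments did not overlap for 20 members, beside 24.2% of all genes, with 15 higher (16.7% of all genes) and 5 lower (7.5%). The median log2 fold change was 0.04 over the members and 0.016 over all genes. The shares past the nominal threshold and without overlap were thus near those of all genes.

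Among the U-937 ligands TNFSF9 (4-1BB ligand, a costimulator of T cells; ENSG00000125657, chromosome 19, 6531026 to 6535924) had the smallest p-value. Its FPKM was 8.29, 9.26 and 9.46 with DMSO and 15.81, 14.94 and 16.29 with honokiol (log2 fold change 0.71, SE 0.14, adjusted p = 0.0897, edgeR). The groups were tight and far apart, while the fold stayed under the limit for a DEG. TGFB1 had 199.5, 132.5 and 108.9 with DMSO and 83.40, 93.12 and 95.50 with honokiol (log2 fold change -0.80, SE 0.25, adjusted p = 0.186, edgeR). DMSO replicate 1 was the highest for TGFB1, and without it the log2 fold change was -0.48. GDF11 and BMP8B, also of the TGF-beta family, lay lower with honokiol, GDF11 at 2.61, 2.40 and 2.55 against 1.90, 1.72 and 1.75 and BMP8B at 1.70, 1.79 and 2.06 against 1.52, 1.46 and 1.37. Their log2 fold changes were -0.58 (SE 0.15) and -0.44 (SE 0.18), and GDF11 overlaps SARNP on the opposite strand. The overlap and the shared words given above for BMP8B hold here too.

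Receptors, which are 66 of the 106 members, also made up most of those higher in U-937 with honokiol past the nominal threshold. TNFRSF21 had an FPKM of 16.42, 21.66 and 15.55 with DMSO and of 32.42, 36.40 and 58.11 with honokiol (log2 fold change 1.16, SE 0.25, adjusted p = 0.0995, edgeR). IL31RA, a chain of the IL-31 receptor, had 0.82, 1.61 and 1.41 with DMSO and 3.49, 2.43 and 2.45 with honokiol (log2 fold change 1.04, SE 0.27, adjusted p = 0.144, edgeR). ACVRL1, a type I receptor for BMP9 and TGF-beta known from endothelial cells, had 0.52, 0.36 and 0.26 with DMSO and 0.58, 1.53 and 0.90 with honokiol (log2 fold change 1.29, SE 0.43, adjusted p = 0.211, edgeR). The honokiol values of all 3 genes lay above their DMSO values, though in ACVRL1 the gap between 0.52 and 0.58 was small. ACVRL1 reached the FPKM limit in each honokiol library but only in part of the DMSO libraries. The choice of genes thus fixes its direction in part.

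Of the 6 class II cytokine receptors tested in U-937, 3 passed the nominal threshold, beside the 16.7% of all genes, and 0 were DEGs in edgeR. These 3 were higher with honokiol without overlap, and they are chains of interferon receptors. IFNAR2 was at 7.15, 5.95 and 8.96 with DMSO and at 10.96, 11.92 and 20.53 with honokiol (log2 fold change 0.89, SE 0.27, adjusted p = 0.181, edgeR). IFNGR1 was at 9.41, 16.31 and 11.22 with DMSO and at 18.11, 18.49 and 23.32 with honokiol (log2 fold change 0.62, SE 0.21, adjusted p = 0.220, edgeR). IFNAR1 was at 10.54, 10.41 and 8.80 with DMSO and at 12.51, 13.98 and 15.46 with honokiol (log2 fold change 0.40, SE 0.15, adjusted p = 0.244, edgeR). Honokiol replicate 3 was the highest in each of them, and IFNAR2 shares its strand and position with the gene AP000295. The fourth chain, IFNGR2, was at 28.67, 17.22 and 15.28 with DMSO and at 13.99, 18.54 and 16.37 with honokiol, which overlap. IL12RB1, a chain of the IL-12 and IL-23 receptors, was at 0.80, 0.80 and 0.54 with DMSO and at 0.99, 1.28 and 1.51 with honokiol, a log2 fold change of 0.72 (SE 0.29).

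On the lower side IL17RA and IL6R were again the receptors past the nominal threshold without overlap. IL17RA had 40.29, 41.33 and 28.94 with DMSO and 18.27, 19.95 and 23.98 with honokiol (log2 fold change -0.92, SE 0.20, adjusted p = 0.0989, edgeR). IL6R had 37.93, 37.81 and 33.90 with DMSO and 27.48, 33.61 and 29.17 with honokiol (log2 fold change -0.37, SE 0.14).

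**Figure D2:**
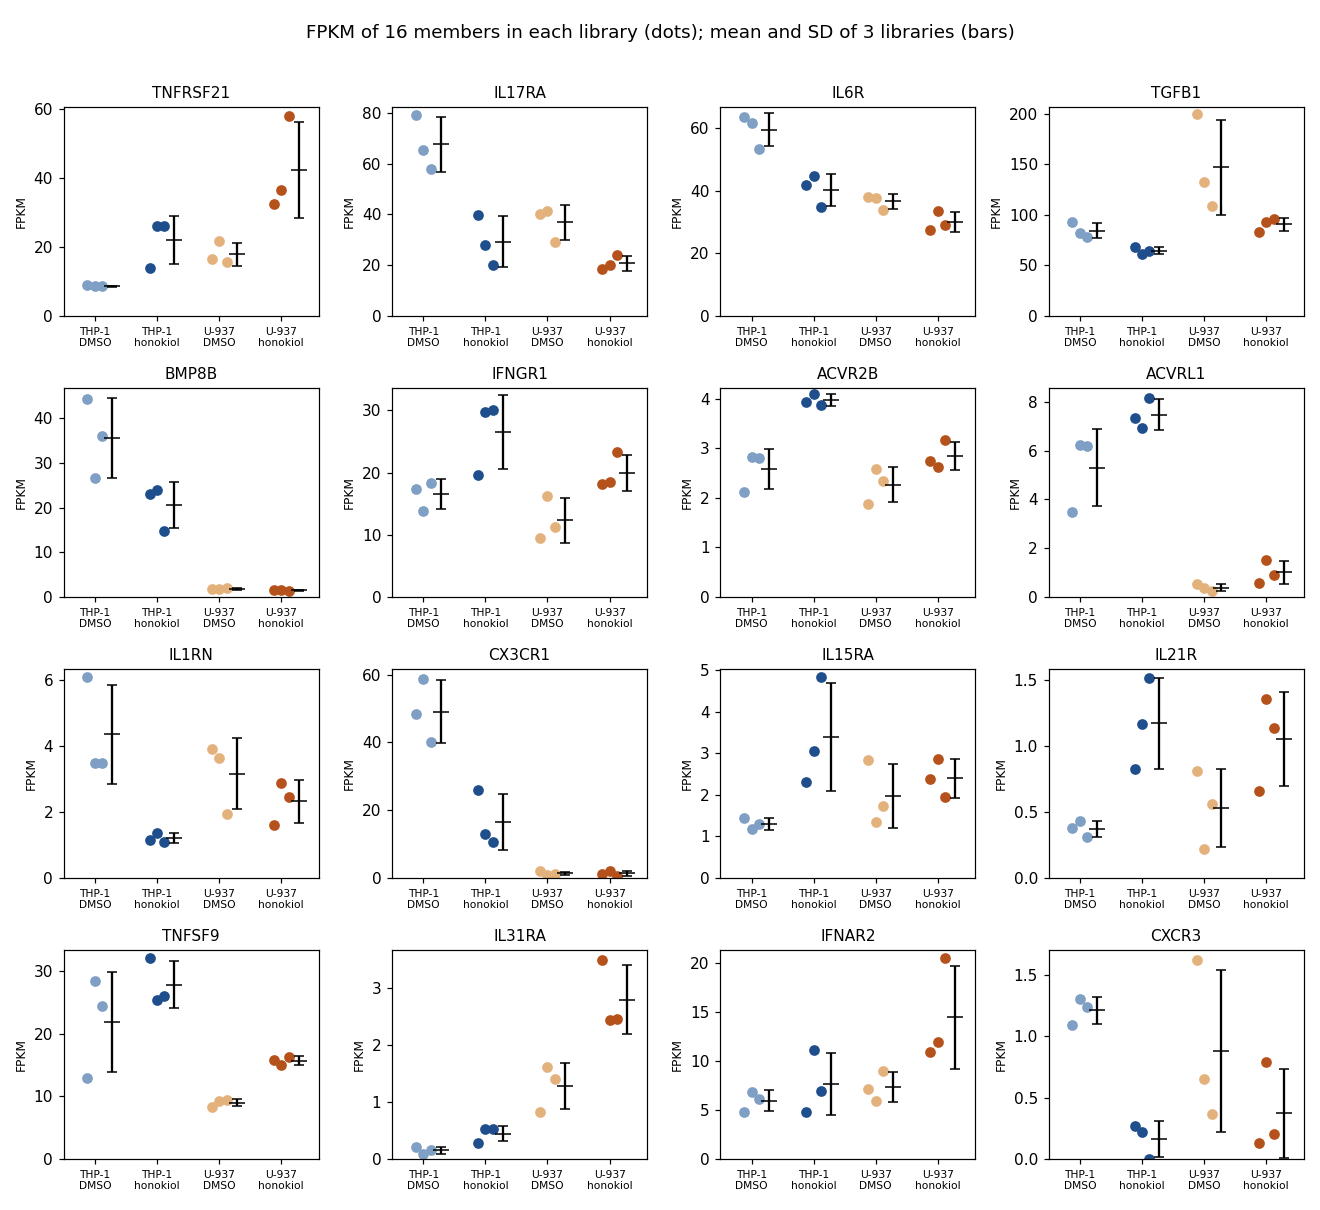
FPKM of 16 members in each library (dots, replicates 1 to 3 from left to right) with the mean and SD of 3 libraries beside them, for the 4 groups on a linear axis that starts at 0. TNFRSF21 and IFNGR1 lie higher, and IL17RA, IL6R and TGFB1 lower, with honokiol in both lines, while CX3CR1 and BMP8B are abundant only on the THP-1 side, with U-937 at or below an FPKM of 2.19.

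The chemokine ligands of U-937 varied widely between the libraries of one group. CXCL8 (interleukin-8, the neutrophil attractant; ENSG00000169429, chromosome 4, 73740541 to 73743716) had an FPKM of 59.01, 19.58 and 18.45 with DMSO and of 5.46, 54.26 and 4.64 with honokiol. CCL2 had 125.7, 79.81 and 24.11 with DMSO and 16.92, 55.59 and 21.63 with honokiol. CXCL2, a further neutrophil attractant, had 11.05, 0.94 and 0.57 with DMSO and 0.13, 3.73 and 0.22 with honokiol. In each gene DMSO replicate 1 was the highest DMSO library and honokiol replicate 2 the highest honokiol library. This order held for 9 of the 10 chemokine ligands past the limit in U-937 (CCL2, CCL3, CCL3L3, CCL5, CCL7, CCL23, CXCL2, CXCL8 and CXCL11, with CXCL16 as the exception), for 28 of 85 members and for 13.8% of all genes tested in the line. In THP-1 it held for 5 of 12 chemokine ligands, for 17 of 87 members and for 11.9% of all genes. The order was noticed in the values and then counted.

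The chemokines that shared this order did not all lie on one side with honokiol. The log2 fold changes in U-937 were -0.74 (SE 0.93) for CXCL8, -1.41 (SE 0.63) for CCL2, -1.79 (SE 1.44) for CXCL2, -1.01 (SE 0.91) for CCL7 (a monocyte attractant), 1.33 (SE 1.07) for the interferon-induced CXCL11 and 0.70 (SE 0.29) for CCL23. Only CCL23, a ligand of CCR1, passed the nominal threshold without overlap, with 2.56, 1.99 and 1.82 with DMSO and 3.65, 4.32 and 3.14 with honokiol (adjusted p = 0.287, edgeR). Without U-937 DMSO 1 and honokiol 2, a choice made after the values were seen, the log2 fold changes were -1.96 (SE 0.18) for CXCL8, -1.49 (SE 0.56) for CCL2, -2.16 (SE 0.56) for CXCL2 and 2.55 (SE 1.02) for CXCL11, and 0 members were DEGs. Without DMSO 1 alone CXCL8 and CXCL2 changed sign, to 0.09 and 0.74, and CCL2 was at -0.81, while without honokiol 2 alone CCL2 was at -2.09. U-937 DMSO 1 is also the U-937 library with the highest mitochondrial share, and the part of that in these values was not tested.

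**Figure D3:**
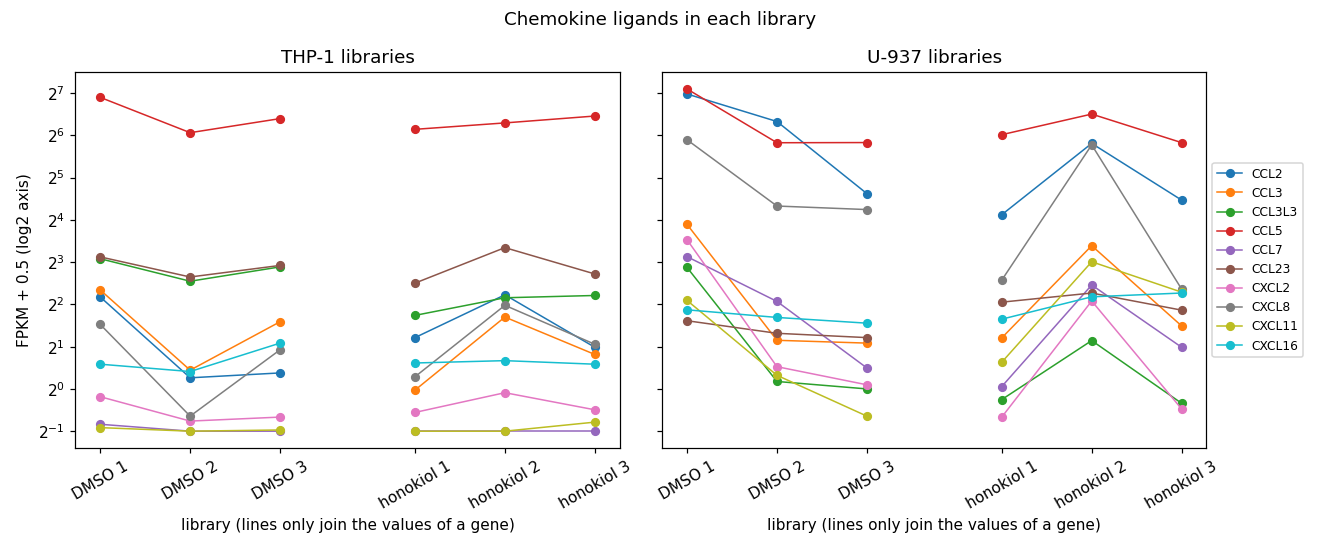
FPKM + 0.5 of 10 chemokine ligands in each library of THP-1 (left) and U-937 (right) on a log2 axis, with lines that only join the values of a gene within a group. In U-937, DMSO 1 and honokiol 2 are the peaks of their groups for each gene drawn except CXCL16, while CXCL11 and CCL7 stay near 0 in THP-1.

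Shown are the upstream sequences of CXCL8, CXCL2 and CXCL11, which shared the order of the U-937 libraries. Of the chemokine ligands with that order and a promoter entry, only these held a match to the short sequence marked below. The 3 sequences are the 250 bases before the RefSeq start of each gene (GRCh38.p14), 5′ to 3′ on the strand of the gene, and capitals mark matches to GGNNTTTCC on either strand, a short form of the NF-kappaB site that was picked after the values were seen. CXCL8 lies at chr4:73740319-73740568 on the plus strand, CXCL2 at chr4:74099196-74099445 on the minus strand and CXCL11 at chr4:76036071-76036320 on the minus strand.
CXCL8: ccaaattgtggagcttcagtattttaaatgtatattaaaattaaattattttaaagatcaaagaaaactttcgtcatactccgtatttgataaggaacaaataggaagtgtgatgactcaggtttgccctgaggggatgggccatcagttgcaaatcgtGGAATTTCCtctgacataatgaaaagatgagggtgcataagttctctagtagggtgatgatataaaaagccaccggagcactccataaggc
CXCL2: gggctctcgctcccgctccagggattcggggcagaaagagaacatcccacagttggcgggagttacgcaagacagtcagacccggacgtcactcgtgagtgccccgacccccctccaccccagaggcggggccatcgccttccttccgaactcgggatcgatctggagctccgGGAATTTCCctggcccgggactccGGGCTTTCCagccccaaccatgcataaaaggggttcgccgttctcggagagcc
CXCL11: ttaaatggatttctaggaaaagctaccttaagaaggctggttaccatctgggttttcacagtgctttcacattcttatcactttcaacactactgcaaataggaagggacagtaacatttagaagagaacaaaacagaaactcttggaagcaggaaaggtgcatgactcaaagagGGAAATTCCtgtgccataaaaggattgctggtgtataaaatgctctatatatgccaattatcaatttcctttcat
The match begins 91 bases before the start in CXCL8 and 77 and 53 bases before it in CXCL2, and in CXCL11 a match on the reverse strand begins 75 bases before it. Of the 79 members with a RefSeq promoter entry 16 (20.253%) held a match, beside 6.695% of 27305 genes with an entry. These shares cover all members and not the genes that shared the order, and a part of NF-kappaB in that order was not tested. CCL7, CCL3, CCL3L3 and CCL23, which shared the order of the libraries, held none in their windows, and no entry was matched for CCL2 and CCL5. IL1RN, which also shared the order in U-937, held a match in 1 of its windows. CCL20, past the limit in THP-1 only, held 1 match.

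The lines were then set side by side. Of the 68 members tested in both, 9 had no overlap between treatments in the same direction in both lines, beside 5.16% of 12343 genes. These were higher for the receptors ACVR2B, ACVRL1, IFNGR1 and TNFRSF21 and the ligand chain IL23A, and lower for the receptors IL17RA and IL6R and the ligands BMP8B and TGFB1. In U-937 ACVRL1 and IL23A reached the FPKM limit in each honokiol library but only in part of the DMSO libraries. The choice of genes thus fixes their direction there in part. There were 0 members without overlap in opposite directions, beside 1.15% of the genes tested in both lines. IL23A, the specific chain of IL-23, was at 3.80, 4.41 and 4.20 with DMSO and 5.35, 4.67 and 5.98 with honokiol in THP-1, and at 0.72, 0.31 and 0.66 against 0.92, 1.57 and 0.74 in U-937. Among these genes TNFRSF21 had the largest log2 fold changes in the positive direction in THP-1 (1.29), and IL17RA the largest in the negative direction in both lines (-1.27 and -0.92).

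Whether the response differed between the lines was asked by an interaction term in an edgeR fit to the 12 libraries. The difference was called for 0 of the 106 members at an adjusted p under 0.05, beside 0.111% of all 16283 genes tested, and 12 members passed the nominal threshold, beside 9.37% of all genes. For 8 of these the log2 fold change was more positive or less negative in U-937 than in THP-1 (4.82% of all genes). For the other 4 it was the reverse (4.54%). A positive difference thus need not mean a larger response in U-937. DESeq2 called 1 member (TNFRSF25), beside 1.5% of all genes, which is at or near 0 in U-937. The smallest adjusted p was 0.344, for IFNAR1, which in THP-1 was at 11.35, 11.39 and 9.48 with DMSO and at 8.39, 10.20 and 7.91 with honokiol, with overlap, and in U-937 lay higher with honokiol, as given above. The difference in its log2 fold change was 0.73 (SE 0.22). By size the named differences were those of CX3CR1 (1.55, SE 0.61), IL1RN (1.37, SE 0.49), IL15RA (-1.14, SE 0.47), the lymphotoxin chain LTB (1.05, SE 0.44) and CSF1R (0.93, SE 0.37), with adjusted p-values of 0.403 to 0.487 in edgeR.

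In these genes the THP-1 side held the larger separation, except in LTB. CX3CR1 in U-937 was at 1.98, 0.93 and 1.14 with DMSO and 1.28, 2.19 and 0.70 with honokiol, and IL15RA at 2.84, 1.35 and 1.73 against 2.39, 2.87 and 1.94, both with overlap. IL1RN in U-937 was at 3.91, 3.63 and 1.93 with DMSO and 1.61, 2.89 and 2.45 with honokiol. CSF1R, the receptor of CSF1 and IL-34, was at 43.44, 30.96 and 50.30 with DMSO and 25.57, 27.95 and 31.05 with honokiol in THP-1, which overlap by a small margin, and at 2.01, 1.78 and 1.19 against 1.51, 2.80 and 2.36 in U-937. LTB was at 1.34, 2.91 and 2.64 against 1.70, 1.74 and 1.47 in THP-1 and at 0.82, 0.80 and 0.65 against 1.32, 1.11 and 1.10 in U-937, where the groups did not overlap. The other members past the nominal threshold for the difference and a large fitted value, TNFRSF25, CD40, IL18RAP, NGFR and IL1R1, were under the limit in one of the lines, so no fold is given for them. For TNFRSF21 the difference was -0.15 and for IL17RA 0.33, and the smallest adjusted p over all fits run was 0.784 for TNFRSF21 and 0.609 for IL17RA (edgeR, DESeq2 and limma).

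**Figure D4:**
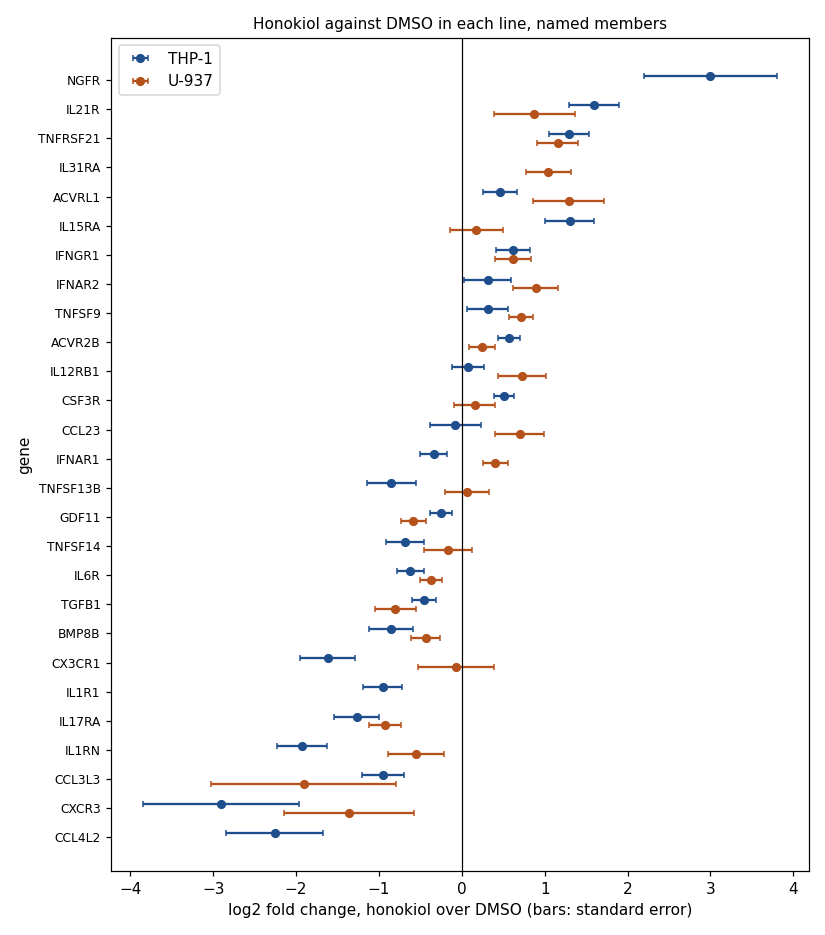
Log2 fold change of honokiol over DMSO with its standard error for the named members in THP-1 (blue) and U-937 (orange), from edgeR, with genes ordered by the mean of both lines and no point where a gene was not tested in a line. TNFRSF21 (1.29 and 1.16) and IL17RA (-1.27 and -0.92) lie at like values in both lines, while CX3CR1 (-1.62 and -0.07) and IL15RA (1.3 and 0.17) do not.

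Genes that carry the signal from these receptors were taken from a list of 43 JAK, STAT, SMAD, adaptor and inhibitor genes, of which 41 were tested in each comparison. In each line 0 were DEGs with honokiol, and 7 passed the nominal threshold, beside the 13.1% (THP-1) and 16.7% (U-937) of all genes. These shares cover both directions, and the splits by direction below have no share beside them. In THP-1 4 of these lay higher and 3 lower, with the smallest p-values for STAT5A and MYD88. STAT5A, a STAT factor downstream of many class I receptors, had a mean FPKM of 3.12 with DMSO and 6.49 with honokiol (log2 fold change 0.99, SE 0.16, adjusted p = 0.0831, edgeR). MYD88, the adaptor of IL-1 and Toll-like receptors, had 14.8 and 8.28 (log2 fold change -0.90, SE 0.20, adjusted p = 0.168, edgeR). In U-937 3 lay higher and 4 lower, with the smallest p-values for STAT2 and PTPN6. STAT2, which acts downstream of the type I interferon receptor of IFNAR1 and IFNAR2, had a mean FPKM of 3.31 with DMSO and 6.51 with honokiol (log2 fold change 0.89, SE 0.16, adjusted p = 0.0776, edgeR). PTPN6, the phosphatase SHP-1, had 29.5 and 21.5 (log2 fold change -0.55, SE 0.11, adjusted p = 0.0913, edgeR).

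More members differed between the lines themselves than between treatments. With DMSO 59 of 95 members tested were DEGs, beside 32.4% of all 14617 genes tested. Of these 26 were higher (13.9% of all genes) and 33 lower (18.4%) in U-937, and the median log2 fold change of U-937 over THP-1 was -0.34 over the members and -0.04 over all genes. Members past the limit in one line alone were chosen through the line where they are high. All 9 members past it in each THP-1 and no U-937 DMSO library and all 10 in the reverse position were DEGs, which the choice of members fixes in part. Of the 58 members past the limit in all 6 DMSO libraries 28 were DEGs, 9 higher and 19 lower in U-937. The share of all genes under this stricter condition was not counted. This count and the family counts below thus have no share beside them. Over all genes tested, too, more were lower (18.4%) than higher (13.9%) in U-937. The DMSO libraries of this contrast are also the controls of the honokiol contrasts.

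Of the chemokine ligands past the limit in all 6 DMSO libraries, 1 of 5 CC ligands was higher in U-937 and 1 in THP-1, and the 1 CXC ligand, CXCL16, was higher in U-937. The other chemokine ligands were under the limit in part of the libraries, so no count over them is given. CXCL8 is one of these and entered the test through U-937, so that the choice of genes fixes its direction in part. CXCL8 was at 2.38, 0.14 and 1.40 in THP-1 DMSO libraries against the 18.45 to 59.01 of U-937 (log2 fold change 4.57, SE 0.94, adjusted p = 0.00407, edgeR), with a value of 5.41 without THP-1 DMSO 1 and of 3.73 without U-937 DMSO 1. CCL2 was at 4.02, 0.70 and 0.80 in THP-1 against 24.11 to 125.7 (log2 fold change 5.29, SE 0.92, adjusted p = 0.0017, edgeR), with a value of 6.66 without THP-1 DMSO 1 and of 4.67 without U-937 DMSO 1. CCL5, which attracts T cells and monocytes, did not separate the lines, with 118.8, 66.37 and 83.75 in THP-1 and 136.5, 56.21 and 56.37 in U-937. On the other side, CCL24 (an eosinophil attractant) was at 7.07, 3.77 and 10.63 in THP-1 and at 0.06, 0.14 and 0 in U-937, the CCR4 ligand CCL22 was at 3.61, 1.44 and 1.98 in THP-1 and had no count in U-937, and the epithelial chemokine CCL28 was at 4.06, 3.5 and 4.83 against 0.01, 0 and 0.01. Against a floor of 12 counts over the group (3 times the most frequent low count), CCL22 was at least 129-fold higher in THP-1. CCL24, CCL22 and CCL28 became members through THP-1 alone, so that their direction was fixed by the choice and no test is given.

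Of 4 chemokine receptors past the limit in all 6 DMSO libraries 3 were higher in THP-1 and CXCR4 was higher in U-937. CX3CR1 was at 40.09 to 58.74 in THP-1 and at 0.93 to 1.98 in U-937 (log2 fold change -5.22, SE 0.36, adjusted p = 1.48e-05, edgeR). The CCL2 receptor CCR2 was at 2.32, 6.02 and 2.84 in THP-1 and at 0.44, 0.73 and 0.26 in U-937 and was past the limit in THP-1 only, the opposite side from its ligand CCL2. CXCR2, a receptor of CXCL8, was likewise at 9.75, 4.02 and 6.57 in THP-1 and at 1.80, 1.85 and 2.12 in U-937 (log2 fold change -1.89, SE 0.34), against CXCL8. The choice of genes fixes the sides of CCR2 and CXCL8 in part. The opposite sides of ligand and receptor are thus only described, and a link between them was not tested. CXCR4 was at 48.62, 55.09 and 47.72 in THP-1 and at 131.4, 131.2 and 100.3 in U-937 (log2 fold change 1.21, SE 0.18, adjusted p = 0.000772, edgeR).

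In the growth factor families THP-1 held the higher level of CSF1R, at 43.44, 30.96 and 50.30 against 2.01, 1.78 and 1.19 (log2 fold change -4.68, SE 0.31, adjusted p = 1.15e-05, edgeR), and of BMP8B, at 26.56 to 44.45 against 1.70 to 2.06 (log2 fold change -4.34, SE 0.26, adjusted p = 6.79e-06, edgeR). CSF1R overlaps the pseudogene RPL7P1 on the opposite strand. BMP8B overlaps OXCT2 on its own strand and shares sequence with BMP8A, as given above. U-937 held AMH, the anti-Mullerian hormone, at 7.26, 6.37 and 8.11 against 0.07, 0.11 and 0.11, and since AMH became a member through U-937 alone its difference was fixed by the choice and is given with no test. The type I TGF-beta receptor TGFBR1 was higher in U-937 but scattered, at 12.71, 29.04 and 52.37 against 4.65, 12.24 and 4.92 (log2 fold change 2.04, SE 0.52, adjusted p = 0.0115, edgeR).

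TNF family ligands split between the lines. CD70, the ligand of CD27, was at 52.79, 83.15 and 75.04 in THP-1 and at 13.35, 10.16 and 13.47 in U-937 (log2 fold change -2.55, SE 0.21). TNFSF13B was at 4.89, 3.47 and 4.03 in THP-1 and at 17.66, 22.84 and 16.27 in U-937 (log2 fold change 2.13, SE 0.23). Among receptors of the TNF family, CD40, the costimulatory receptor of antigen-presenting cells, was at 5.92, 8.27 and 7.90 in THP-1 and at 0.02, 0 and 0.02 in U-937. CD40 became a member through THP-1 alone, so that its direction was fixed by the choice and no test is given. TNFRSF12A, the TWEAK receptor, was at 0.52, 1.02 and 1.54 in THP-1 and at 9.12, 9.86 and 5.55 in U-937 (log2 fold change 2.95, SE 0.42). The adjusted p-values of the 3 genes with a fold here were 3.39e-05 for CD70, 0.000128 for TNFSF13B and 0.000613 for TNFRSF12A in edgeR.

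Of the 14 class I cytokine receptors past the limit in all 6 DMSO libraries, 7 were higher in THP-1 and 1 in U-937. IL2RG, the common gamma chain, was at 45.55, 35.23 and 37.20 in U-937 and at 0.25, 0.09 and 0.51 in THP-1. IL12RB2, a chain of the IL-12 receptor, was at 6.68, 6.30 and 3.78 in THP-1 and at 0.11, 0.09 and 0.14 in U-937. Each of these chains was past the limit in one line alone and is given with no test. IL6ST, the gp130 chain shared by the IL-6 family, was at 4.24, 3.35 and 3.68 in THP-1 and at 0.95, 0.92 and 0.68 in U-937 (log2 fold change -2.20, SE 0.24). IL3RA, the IL-3 receptor chain, was at 3.40, 5.15 and 4.36 in THP-1 and at 1.22, 0.91 and 0.76 in U-937 (log2 fold change -2.19, SE 0.33). None of these groups overlapped. Of the 6 class II receptors tested 0 were DEGs between the lines in edgeR, and IFNGR1 (16.5 against 12.3 on average), IFNAR1 (10.7 against 9.92) and IFNAR2 (5.95 against 7.35) were at like mean FPKM in THP-1 and U-937.

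IL32, a cytokine made by lymphoid and myeloid cells, was higher in U-937. It was at 40.53, 50.68 and 54.10 in U-937 and at 0.23, 0.87 and 0.52 in THP-1 (log2 fold change 6.40, SE 0.45, adjusted p = 1.54e-05, edgeR). IL32 was under the limit in part of the THP-1 DMSO libraries and entered this test through U-937. The choice of genes thus fixes its direction in part. Of the IL-18 receptor chains IL18R1 was at 2.56, 5.08 and 3.99 in U-937 and at 0.44, 1.15 and 0.32 in THP-1, and IL18RAP was at 0.60, 1.25 and 0.67 against 0.09, 0.12 and 0.02. Without DMSO 1 of both lines, the libraries with the highest mitochondrial shares, 58 members were DEGs between the lines.

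**Figure D5:**
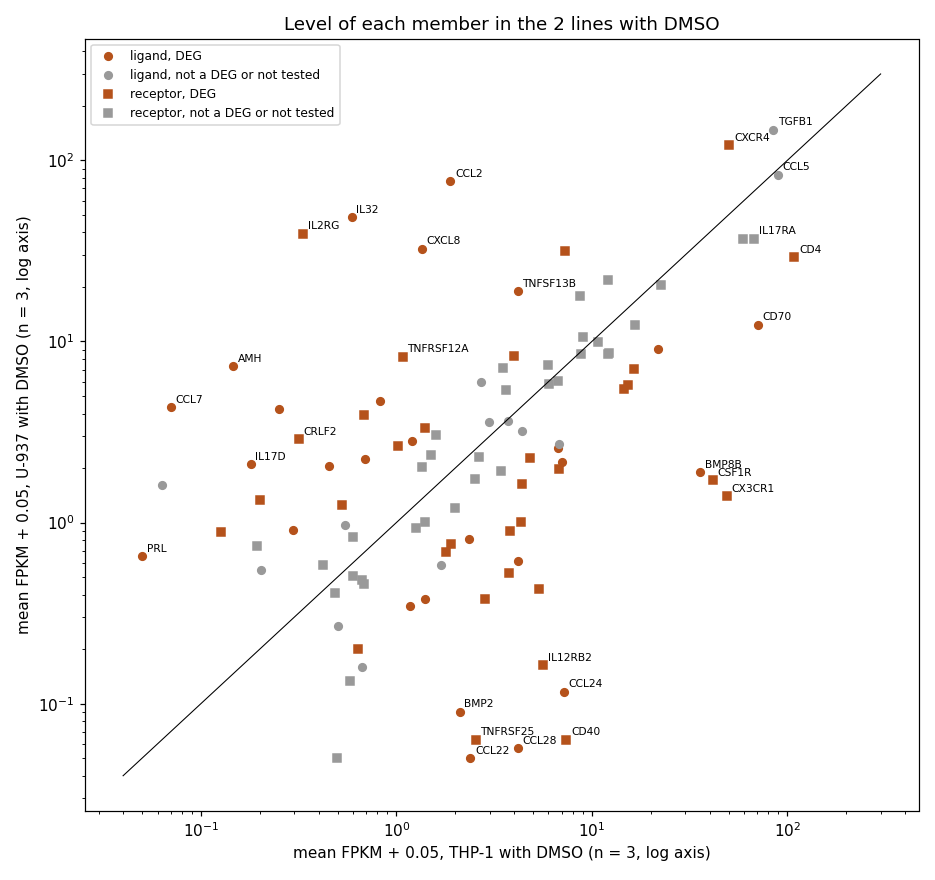
Mean FPKM + 0.05 of each member in THP-1 (x) and U-937 (y) with DMSO, 3 libraries each, on log axes, with circles for ligands, squares for receptors, orange for DEGs and a line of equal level. CCL2, IL32, IL2RG, CXCL8 and AMH lie far above the line, CSF1R, CX3CR1, BMP8B, IL12RB2, CD40 and CCL28 far below it, and TGFB1 and CCL5 near it at high levels in both lines.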

How the data were processed

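mRNA libraries of THP-1 and U-937 cells were analysed from 1 table, in which the authors deposited an FPKM value, scaled by transcript length and depth, per gene and library. Beside it stands a whole-number estimated count deposited by the authors without normalization. The submitters' processing notes name Bowtie 0.12.2, HISAT2 2.0, StringTie 1.3.0 and the mouse build mm8, with no role given. All 106 members were found in GENCODE 29 (GRCh38), 34 with identical coordinates, and the coordinates of the table are given as deposited. The counts are treated as counts although they are estimates, in which 4 is the most frequent low value, and depth limits the low genes most.

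R 4.3.3, edgeR 4.0.16, limma 3.58.1, DESeq2 1.42.0 and Python 3.11.15 were used. Genes that reached an FPKM of 0.5 in 3 or more of the 6 libraries compared entered edgeR's quasi-likelihood test with TMM normalization and Benjamini-Hochberg adjustment over all genes tested, without a replicate term. The methods of the study name the DEG criterion (adjusted p-value under 0.05, absolute log2 fold change over 1) but no test for the sequencing. The difference between the lines was an interaction in one fit of 12 libraries, with the FPKM limit required in 3 or more. An exact permutation test of 3 against 3 libraries cannot go below p = 0.1 and was not used. The test was checked on simulated counts.

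Members and lists were chosen with earlier results of these data known. Tested values are given for DEGs, for up to 10 higher and 10 lower members per line with an unadjusted p under 0.05 and no overlap, for up to 10 members by size of the difference between lines at an unadjusted p under 0.05, for the 5 most abundant members of each group and for receptor or ligand partners of these. Line differences were named from the DEGs, and IFNAR1 in the difference, the signalling genes and the chemokine order were picked after their values were seen. Alternatives covered limma-trend on log2(FPKM + 0.5) and log2(FPKM + 0.1), the filter, RLE size factors, DESeq2, counts divided by 4, a replicate block, a joint fit of the 12 libraries and each replicate left out. Fits without the libraries of the highest chemokine levels or mitochondrial shares were added after the values were seen. Promoters were taken from RefSeq (GRCh38.p14) by symbol, with 79 members matched.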

Additional observations from a re-analysis of the deposited data

How the results depend on the processing

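The count of DEGs among members stayed at 0 in THP-1 under limma-trend with either pseudocount, no filter, an FPKM limit of 1, RLE size factors, counts divided by 4, the replicate block and one fit of all libraries. It was 8 with DESeq2, 9 with an unadjusted p-value and 0 to 2 with 1 replicate left out (2 without honokiol replicate 1). In U-937 it was 0 under the same settings, 3 with DESeq2, 3 with an unadjusted p-value and 0 to 0 with 1 replicate left out. The difference between the lines was called for 0 members under these settings, for 1 with DESeq2, for 12 with an unadjusted p-value, for 0 to 0 with 1 replicate left out, for 0 without DMSO 1 of both lines and for 1 (BMP2) without U-937 DMSO 1 and honokiol 2. Between the lines with DMSO the count was 59, between 50 and 66 under the other settings and 57 to 63 with 1 replicate left out.

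Replicate numbers showed no steady pairing within a line: deviations of same-numbered libraries from their group means correlated at -0.16 to 0.09. Between the DMSO libraries of the lines these correlations were 0.10, 0.03 and 0.11 for replicates 1, 2 and 3. Libraries of other numbers reached at most 0.02, 0.03 and -0.05 there. No label names a batch, so whether same-numbered libraries shared one is not known here. With the replicate block 0, 0 and 0 members were called in THP-1, U-937 and the difference, and 58 between the lines.

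Of 1306 alternative values for 80 single-gene results 1278 kept direction and call, 19 passed the threshold where the reported value did not, 0 lost it and 9 changed sign. Only results of the contrast between the lines could lose a call, since no honokiol or difference result was called in the reported fit. For those, a kept call means still not called. The sign changes were in results far from the threshold. With 1 replicate left out the log2 fold change in U-937 ranged from -0.5381 to 0.3564 for CX3CR1 (above 0 without DMSO 1 and, at 0.2393, without honokiol 3), from -0.0504 to 0.5692 for IL15RA (below 0 without DMSO 2), from -2.7845 to 0.092 for CXCL8, from -0.6081 to 0.2519 for CCL5 and from -4.6859 to 0.7409 for CXCL2 (above 0 without DMSO 1 in these 3). For TNFRSF21 the difference ranged from -0.4569 to 0.0122 (above 0 without U-937 honokiol 1 and, at 0.0064, without U-937 DMSO 2). Without U-937 DMSO 1 and honokiol 2 the value of CCL5 was 0.0448. The cause of these changes was not tested. Precision was limited by 3 libraries a group.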

Other observations

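Some members were read in single libraries of a group. TNFRSF6B, a decoy receptor for FAS ligand, had an FPKM of 0.55, 0.03 and 1.32 in THP-1 with DMSO, 0.13, 0.02 and 0.11 with honokiol, 0, 0.09 and 1.14 in U-937 with DMSO and 0.02, 0.05 and 0.04 with honokiol, and it overlaps the readthrough gene RTEL1-TNFRSF6B on its strand. CCL4 reached 2.74 in U-937 DMSO 1 and 1.48 in U-937 honokiol 2 and was at 0.02 or below in the other U-937 libraries. IL7R, the IL-7 receptor chain, was at 4.04 in U-937 honokiol 2 and at 0.13 to 1.26 in the other U-937 libraries. The hormone PRL was at 0.47 to 0.64 in the 6 U-937 libraries and had no count in the THP-1 DMSO libraries, at least 16.2-fold higher in U-937 against a floor of 12 counts over the group. The scavenging receptor ACKR3 was at 0.39 to 1.15 in THP-1 and had no count in the U-937 DMSO libraries, at least 17.5-fold higher in THP-1. PRL became a member through U-937 alone and ACKR3 through THP-1 alone, so that both directions were fixed by the choice.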
